A study of Mus musculus with 13 samples.

Results

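Arrays of dissected cerebral meninges from newborn C57BL6 mice measured 9 transcription factor genes of the meningeal mesenchyme: the forkhead genes *Foxc1*, *Foxc2*, *Foxd1* and *Foxf2*, the zinc-finger genes *Zic1*, *Zic2* and *Zic4*, the T-box gene *Tbx18* and the basic helix-loop-helix gene *Twist1*. They were listed by name, with earlier results of these data known, and each was read from its brightest probe set with a single gene symbol. All 9 were found among 19938 tested genes. The mice were 4 *Pdgfc-/-; Pdgfra GFP/+* mutants and 9 controls of 1 litter, with 1 Affymetrix Mouse Gene 1.0 ST array per pup. *Pdgfra GFP* is a null allele in which a nuclear green fluorescent protein replaces the receptor. The controls pooled every other genotype of the litter, namely *Pdgfc+/+*, *Pdgfc+/-* and *Pdgfc-/-* pups with 2 intact copies of *Pdgfra*, and *Pdgfc+/+* or *Pdgfc+/-* pups that carried *Pdgfra GFP/+*. Which control had which genotype is not in the labels.

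The meninges are the mesenchymal sheets that wrap the brain, and over the forebrain they come largely from the cranial neural crest. Transcription factors of this mesenchyme set the identity of its fibroblasts, which lay down the basement membrane of the brain surface and secrete retinoic acid, CXCL12 and bone morphogenetic proteins (BMPs) toward the cortex. In the mouse, *Foxc1* is required for the forebrain meninges to form, and *Zic* genes are active both in meningeal mesenchyme and in the dorsal neural tube.

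The levels of *Zic1* with *Tbx18* and with *Foxc1* had the highest Pearson correlations from control to control, with no array median taken off, as described below, so their promoters are shown: the 250 bases before the gene start from RefSeq, build GRCm38.p6, 5′ to 3′ on the gene's own strand. Capitals mark the motif CCAAT, or ATTGG where it lies on the other strand. The *Zic1* window is chr9:91365769-91366018 on the minus strand, the *Tbx18* window is chr9:87731261-87731510 on the minus strand, and the *Foxc1* window is chr13:31806396-31806645 on the plus strand.
Zic1: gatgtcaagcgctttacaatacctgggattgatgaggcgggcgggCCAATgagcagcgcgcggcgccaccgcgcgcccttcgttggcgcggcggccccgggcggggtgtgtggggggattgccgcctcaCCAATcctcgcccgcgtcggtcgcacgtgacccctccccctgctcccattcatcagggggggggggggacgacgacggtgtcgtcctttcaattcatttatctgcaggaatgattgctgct
Tbx18: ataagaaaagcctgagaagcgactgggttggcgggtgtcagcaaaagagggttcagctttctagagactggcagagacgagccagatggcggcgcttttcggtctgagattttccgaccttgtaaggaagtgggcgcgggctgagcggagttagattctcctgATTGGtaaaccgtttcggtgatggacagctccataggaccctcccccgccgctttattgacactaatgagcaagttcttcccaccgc
Foxc1: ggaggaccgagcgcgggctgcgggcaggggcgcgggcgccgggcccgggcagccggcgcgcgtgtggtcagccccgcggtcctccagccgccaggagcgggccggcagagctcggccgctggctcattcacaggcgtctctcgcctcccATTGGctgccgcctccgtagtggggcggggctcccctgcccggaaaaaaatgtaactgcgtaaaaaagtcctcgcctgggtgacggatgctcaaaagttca
The *Zic1* window held 2 matches, and those of *Tbx18* and *Foxc1* held 1 each. Of the 9 genes, 7 were in the promoter table, and *Foxc2* and *Zic2* were not used here. On either strand CCAAT occurred in 5 of the 7 windows, against 33.8% of 32851 promoters of this length, and the forkhead motif TGTTTAC, searched on both strands, occurred in 0 of 7, against 3.17%. A match describes letters only. The windows of *Zic1*, *Foxc1* and *Foxf2* had GC contents of 66.0%, 70.8% and 71.6%, and that of *Zic4* had 44.4%, where the median of all promoters was 52.4%. *Zic1* and *Zic4* are neighbours on chromosome 9 that are read away from each other, and *Foxc1*, *Foxf2* and *Foxd1* lie on chromosome 13.

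Across the arrays, median intensity lay between 56.0 and 89.7 in mutants and between 44.1 and 89.0 in controls, and the intensities carry no scaling to 1 distribution. *Pdgfc*, the gene of the missing ligand, was lower in mutants (log2 fold change -1.84, adjusted p = 0.00772 in limma), with intensities of 22.8 to 29.3 in mutants and 103 to 275 in all controls but control 2, which had 5.88. Pan-neuronal markers summed to 14000 to 17190 in mutants and 1482 to 4190 in controls. Of these, 12 of 12 rose, against 8.58% of all tested genes (adjusted p under 0.05 in limma). Meningeal fibroblast markers summed to 34650 to 51900 in mutants and 44730 to 59480 in controls, so markers of the labelled tissue were bright in every sample. The sexes were not balanced. All 4 mutants had *Xist*, the transcript of the inactive X, at 2.24 to 4.77 and below the Y-linked *Eif2s3y*, as had controls 1, 5 and 8 at 4.78 to 8.73, while the other 6 controls had *Xist* at 536 to 1020. Controls 1, 5 and 8 also had the highest *Pdgfc* of the controls, 242 to 275, against 5.88 to 193 in the other 6. Sex and *Pdgfc* level cannot be told apart in that choice of controls. Against controls 1, 5 and 8 alone, a comparison chosen after the data were seen, *Foxc2* and, among the other genes named below as called, *Ebf1*, *Foxo1*, *Id1*, *Id2*, *Msx1*, *Prrx1*, *Rdh10* and *Tcf4* did not pass, each with its direction kept. With the *Xist* level as a covariate, *Foxf1*, *Kdr* and *Tek* did not pass either. In these bulk samples, fewer cells of a type and less RNA per cell cannot be told apart.

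With the intensities as deposited, all 9 genes averaged lower in mutant than in control meninges on the log2 scale, and 1 of them, *Foxc2*, passed the test. Over all tested genes, 6.31% fell and 8.58% rose at an adjusted p under 0.05 (limma, Benjamini-Hochberg over 19938 genes), together 14.9%, so 1 of 9 that fell and 0 of 9 that rose are close to the background. At an unadjusted p under 0.05, 5 of the 9 were lower, against 11.2% of all genes, and 49.0% of all genes had a log2 fold change below 0. The median log2 fold change was -0.30 over the 9 genes and 0.0043 over all genes. Without mutant 1 these medians were -0.20 and -0.06, with array quality weights -0.18 and -0.11, and against the 3 controls with low *Xist* alone -0.31 and -0.02. How the arrays were scaled moved these values. Centring each array on reference genes put 6 of 9 below 0, with a median of -0.12, while the median of all genes moved to 0.19. Of the 10 reference genes measured, 3 themselves fell and 0 rose, so this centring shifts values upward. Centring on meningeal fibroblast markers put 3 of 9 below 0, with a median of 0.06 and a median of all genes of 0.37. Under both of these, and under quantile normalization and centring on the array median, each of the 9 genes lay below the median of all genes, but with array quality weights 6 did, without mutant 1 7 did, and without the 4 dimmest arrays 8 did.

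**Figure D1:**
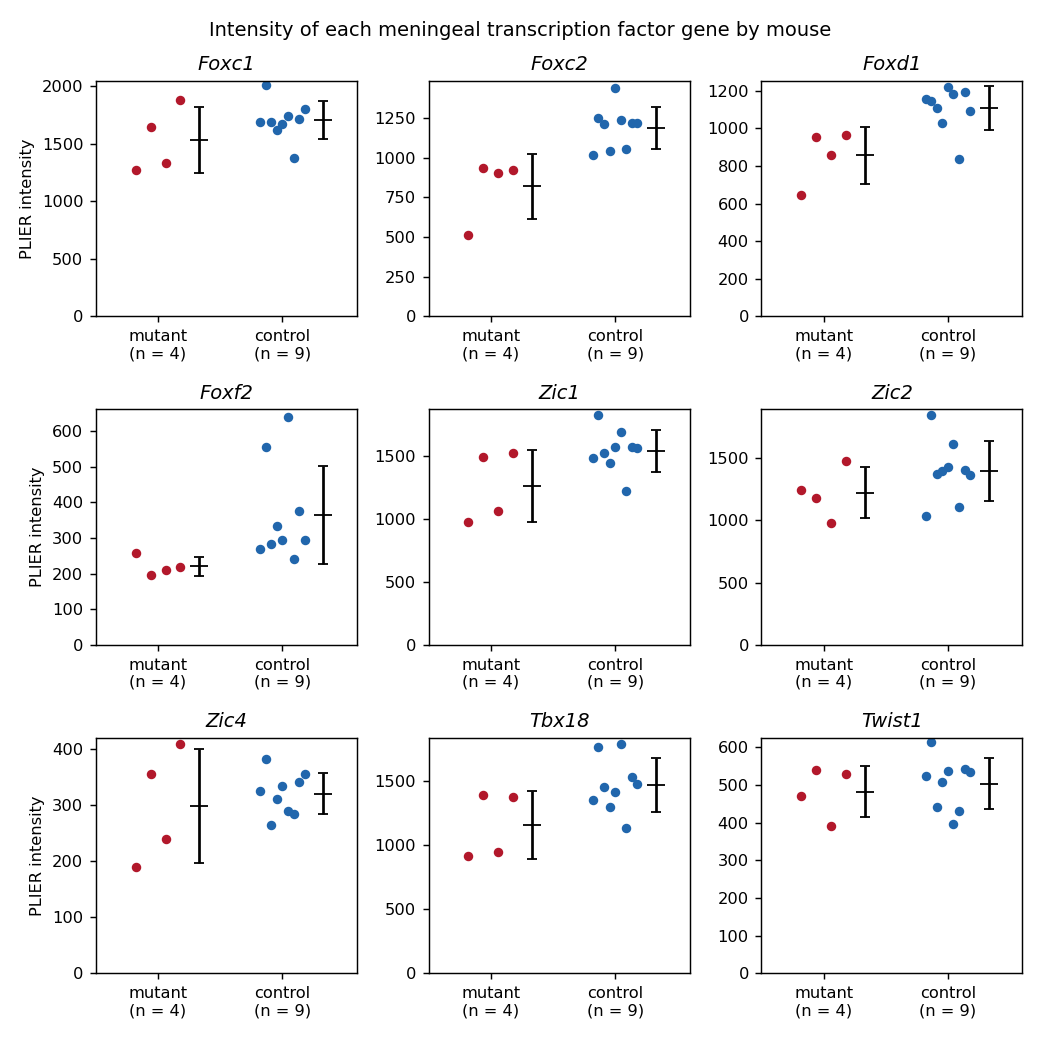
Intensity of each of the 9 genes on its own linear axis from 0, 1 point per mouse, mutants left (n = 4) and controls right (n = 9), with the mean and SD beside each group. The *Foxc2* points of the 2 groups do not overlap, while those of the other 8 genes do.

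*Foxc2* encodes a forkhead factor closely related to *Foxc1* that shares roles with it in mesodermal and vascular development. Its intensity was 513, 936, 901 and 924 in mutants 1 to 4, and lay between 1017 and 1435 with a median of 1216 in controls. Every mutant was thus below every control, which 3.04% of all genes showed (6.40% lay without overlap the other way), and mutant 1 was far below the other mutants. *Foxc2* averaged 819 ± 204 in the 4 mutants and 1187 ± 132 in the 9 controls (SD). It fell by 0.56 on the log2 scale (standard error 0.15, 95% interval -0.88 to -0.24, adjusted p = 0.0160 in limma), or 1.47-fold lower, and p was 0.0014 in a two-sided exact permutation test, the smallest that 4 mice against 9 allow. Without mutant 1 the difference was -0.35 and the adjusted p was 0.111 (limma). With arrays centred on fibroblast markers it was -0.20 with an adjusted p of 0.214 (limma). Against controls 1, 5 and 8 alone, the difference was -0.60 (adjusted p = 0.101 in limma).

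*Foxc1*, in which loss of function in the mouse disrupts the forebrain meninges, differed less. It had intensities of 1270, 1645, 1329 and 1879 in mutants 1 to 4 and 1374 to 2007, with a median of 1693, in controls. Mutants 1 and 3 were below every control, but mutant 4 was exceeded by only 1 control. The log2 fold change was -0.16 (95% interval -0.44 to 0.11, adjusted p = 0.592 in limma). It ranged from -0.27 (without mutant 4) to -0.08 (without mutant 1) with a mouse left out, and was 0.02 with arrays centred on reference genes and 0.20 (adjusted p = 0.0302 in limma) with arrays centred on fibroblast markers.

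*Foxd1*, known from the stroma of the kidney and also active in forebrain meninges of the mouse, had intensities of 643, 954, 858 and 966 in mutants 1 to 4. In controls it lay between 835 and 1217 with a median of 1142. All controls but control 7 were above every mutant, and mutant 1 was the lowest of the 13 mice. The log2 fold change was -0.37 (standard error 0.14, 95% interval -0.66 to -0.09, adjusted p = 0.0741 in limma), and the exact permutation test gave p = 0.00839. Without control 7, whose value stood apart from the other controls, the adjusted p was 0.0298 (limma) with a difference of -0.42. Without mutant 1 the difference was -0.25 and the adjusted p was 0.359 (limma). It was -0.19 (adjusted p = 0.155 in limma) with arrays centred on reference genes and -0.01 (adjusted p = 0.915 in limma) with arrays centred on fibroblast markers.

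*Foxf2*, a forkhead factor known from brain pericytes, had the lowest log2 fold change of the 9 in the main comparison. Its intensity was 258, 196, 210 and 220 in mutants 1 to 4, and lay between 241.5 and 638.5 with a median of 294 in controls. Controls 2 and 6, at 554 and 638.5, were far above the rest, and mutant 1 lay inside the range of controls, above control 7 alone. The log2 fold change was -0.62 (standard error 0.21, 95% interval -1.06 to -0.18, adjusted p = 0.0539 in limma), and the exact permutation test gave p = 0.0266. Leaving out 1 mouse at a time moved the adjusted p between 0.0370 and 0.155 (limma), under the threshold without control 1, 3, 6 or 7. The SD of the *Foxf2* intensity was 26.5 among mutants and 138 among controls.

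Endothelial markers moved with *Foxf2*. The 12 markers summed to 5775 to 7654 in mutants and 8220 to 17400 in controls. Controls 2 and 6 had the highest sums, 17400 and 15800. Of the 12 markers 8 fell, against 6.31% of all tested genes, *Kdr* and *Tek* with the smallest adjusted p among them. The 12 mural markers, which include pericyte genes, summed to 3849 to 4604 in mutants and 3540 to 6475 in controls, again with controls 2 and 6 highest. Of these 12, 0 passed the test, against 14.9% of all tested genes. The part of vessel cells in the *Foxf2* values was not tested. By the deviation of each mouse from its group mean, the 3 genes most like *Foxf2* over the 13 mice were *Adgrl4* (Pearson r = 0.98), *Cd93* (r = 0.98) and *Pecam1* (r = 0.97), with no array median taken off. The same 3 led with the array median taken off.

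**Figure D2:**
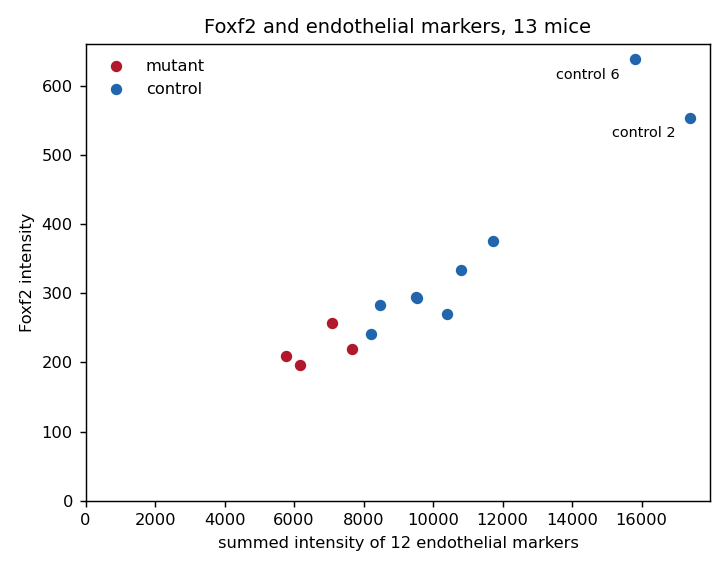
*Foxf2* intensity against the summed intensity of 12 endothelial markers, 1 point per mouse, both axes linear from 0. Mutants lie at 196 to 258 on the *Foxf2* axis and at marker sums of 5775 to 7654, and controls 2 and 6 lie at the upper right.

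For *Zic1*, *Zic4* and *Tbx18*, mutants 1 and 3 were below every control and mutants 2 and 4 were not. None of the *Zic* genes or *Tbx18* passed the test, although *Zic1* and *Tbx18* did with quantile normalization (log2 fold changes of -0.27 and -0.32, adjusted p = 0.00481 and 0.00413 in limma). *Zic1*, a zinc-finger factor of dorsal neural tissue and meninges, had intensities of 973, 1489, 1062 and 1525 in mutants 1 to 4, and 1220 to 1824 with a median of 1560 in controls. The groups overlapped through mutants 2 and 4. Its log2 fold change was -0.30 (95% interval -0.60 to -0.01, adjusted p = 0.195 in limma; exact permutation p = 0.0308). It was -0.19 without mutant 1 and turned to 0.06 with arrays centred on fibroblast markers.

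*Zic2*, the gene mutated in a form of human holoprosencephaly, had 1246, 1183, 983 and 1478 in mutants 1 to 4 and 1034 to 1847 with a median of 1393 in controls. Only mutant 3 was below every control. *Zic4*, the neighbour of *Zic1*, had 189, 355, 239 and 409 in mutants 1 to 4 and 264 to 382 with a median of 325 in controls. Mutants 1 and 3 were the lowest of the 13 mice and mutant 4 was the highest. The log2 fold changes were -0.19 for *Zic2* (95% interval -0.50 to 0.13, adjusted p = 0.611 in limma) and -0.15 for *Zic4* (95% interval -0.50 to 0.19, adjusted p = 0.773 in limma). *Zic2* was -0.09 without mutant 3 and -0.28 without mutant 4, and *Zic4* was -0.07 without mutant 3 and -0.32 without mutant 4. Both were above 0 with arrays centred on fibroblast markers, and *Zic4* also with reference genes or without mutant 1. A second, dimmer probe set of *Zic4* averaged 43.5 ± 17.2 in the 4 mutants and 39.2 ± 12.2 in the 9 controls (SD).

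*Tbx18*, a T-box factor of the epicardium and of mural cell precursors in the mouse, had intensities of 913, 1385, 945 and 1376 in mutants 1 to 4. In controls it lay between 1132 and 1787 with a median of 1454. Mutants 1 and 3 were again below every control, and mutants 2 and 4 were inside their range. The log2 fold change was -0.35 (95% interval -0.67 to -0.04, adjusted p = 0.142 in limma; exact permutation p = 0.0322), and 0.0077 with arrays centred on fibroblast markers.

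*Twist1*, a helix-loop-helix factor of cranial neural crest that keeps the coronal suture open, had the smallest difference of the 9. Its intensities were 471, 539, 391 and 528 in mutants 1 to 4 and 396 to 613 with a median of 524 in controls. The ranges nearly coincided, and only mutant 3 was below every control. The log2 fold change was -0.06 (95% interval -0.34 to 0.22, adjusted p = 0.950 in limma). It was 0.12 with arrays centred on reference genes, 0.04 without mutant 3, and 0.30 (adjusted p = 0.0218 in limma) with arrays centred on fibroblast markers.

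**Figure D3:**
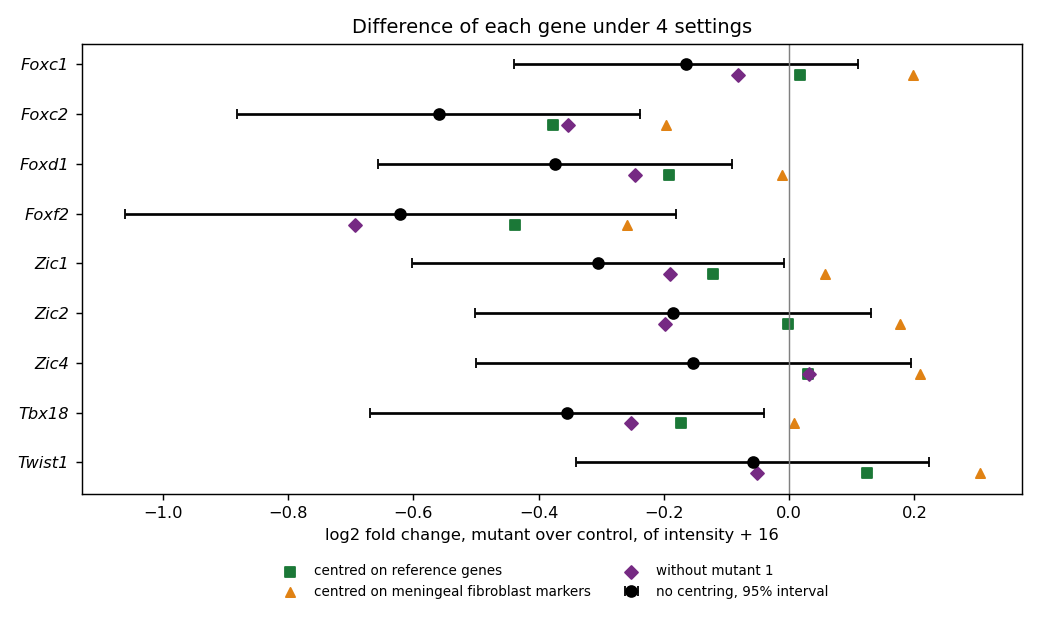
Log2 fold change of each gene, mutant over control, of intensity + 16. Black points with bars give the main values with 95% intervals, and green squares the values with arrays centred on 10 reference genes. Orange triangles give those centred on 19 fibroblast markers, and purple diamonds those without mutant 1. *Foxc2*, *Foxd1* and *Foxf2* lie below 0 under all 4, although *Foxd1* is at -0.01 with fibroblast centring. *Twist1*, *Foxc1* and *Zic4* lie above 0 under both centrings.

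Mutant 1 was the lowest of the 13 mice in 6 of the 9 genes, and mutant 3 in 2. Among controls, control 7 was the lowest in 5 genes and control 2 the highest in 5. Mutant 1 also had a sum of choroid plexus markers of 3808, against 1109 to 1583 in the other mutants and 1858 to 2296 in controls. That sum can rest on 1 gene, as *Ttr* averaged 767 ± 1383 in mutants and 113.5 ± 26.9 in controls (SD). Of the 7 choroid plexus markers measured, 2 fell and 1 rose, against 6.31% and 8.58% of all tested genes. Mutant 1 had the lowest sum of fibroblast markers, 34650. Mutant 3 had the next lowest sum, 35040, and mutant 4 the highest of the mutants, 51900. What these sums contribute to the 9 values was not tested.

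A ratio of 2 genes within an array does not move with the scaling of that array. For each of the 36 pairs, the log2 ratio in mutants was compared with that in controls by a two-sided exact permutation test. None of the 36 passed after adjustment over the pairs, and 9 had an unadjusted p under 0.05. A single pair at the smallest p that the mice allow would reach an adjusted p of 0.0503, so 1 pair alone could not pass. The smallest p belonged to *Foxc1* over *Zic1*, with a mean log2 ratio of 0.28 ± 0.10 in the 4 mutants and 0.14 ± 0.05 in the 9 controls (SD, exact permutation p = 0.00839, adjusted p = 0.111). For *Foxc1* over *Foxc2* the mean log2 ratio was 0.91 ± 0.31 in mutants and 0.52 ± 0.16 in controls (SD, exact permutation p = 0.00979, adjusted p = 0.111). The groups overlapped in every pair. Without mutant 3, 4 pairs passed. With a mouse left out the splits are fewer and the smallest p is larger, so 1 pair alone could not pass there either.

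Among the 9 controls alone, the levels of the 9 genes were positively correlated, and how closely depended on the array median. Pairs of other genes were not counted, so whether the 9 varied together more than other genes cannot be told. The controls also mixed sexes and genotypes, whose part in these correlations was not tested. With the median of each array taken off the log2 values, Pearson's r was above 0 in all 36 pairs, with a median of 0.88, and 34 pairs had an adjusted p under 0.05 (exact permutation test, 36 pairs). With no median taken off, r was again above 0 in all 36 pairs, but its median was 0.58 and 9 pairs passed. The array median itself had an SD of 0.29 on the log2 scale among controls, against 0.14 to 0.46 for the 9 genes. The genes' correlation with it was -0.25 to 0.67 before it was taken off and -0.89 to -0.67 after, so the subtracted term is itself shared by all pairs.

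With no median taken off, *Zic1* and *Tbx18* had the highest Pearson's r, with r = 0.95 and Spearman's rho = 0.88 (n = 9, exact permutation p = 0.00013 for r and 0.00307 for rho, adjusted p = 0.00466 and 0.0277). Without the 2 controls farthest from the control median of the gene named first, here *Zic1*, r was 0.95. The same rule was used for the pairs below. By rho, *Foxf2* and *Zic2* came first, at 0.90 (r = 0.82). *Foxc1* and *Zic1* had r = 0.95 and rho = 0.75 (exact permutation p = 0.00095 and 0.0255, adjusted p = 0.0122 and 0.0918), but r was 0.62 without the 2 farthest controls. *Zic4* and *Twist1* had r = 0.90 and rho = 0.88 (exact permutation p = 0.00132 and 0.00307, adjusted p = 0.0122 and 0.0277), and r was 0.89 without the 2 farthest. The correlation of these last genes with the array median, 0.61 for *Zic4* and 0.67 for *Twist1*, was the highest among the 9. The other pairs that passed, by r, were *Foxf2* or *Foxc1* with *Tbx18*, *Zic2* with *Tbx18*, *Zic1* or *Foxf2*, and *Foxf2* with *Zic1*.

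Genes whose deviations from the group means were most like those of the 9 were named over the 13 mice, among 9968 genes brighter than the median gene, with no array median taken off. *Tbx18* was most like *Ptbp3*, *Cap1* and *Calu* (r = 0.98 for each), *Zic1* like *Strn3* (r = 0.98), and *Foxc1* like *Usp46* (r = 0.98) and *Apod* (r = 0.97), the gene of a lipid carrier. *Foxc2* was most like *Zfp322a* (r = 0.90), *Foxd1* like *Mettl4* (r = 0.96), *Zic2* like *Bmp2k* (r = 0.94), *Zic4* like *Msrb1* (r = 0.97) and *Twist1* like *Chmp7* (r = 0.97). These values are descriptions over few mice, and this version was chosen after the data were seen. With the array median taken off, *Strn3*, *Apod* and *Chmp7* were again among the 3 genes most like their factor, while *Ptbp3*, *Cap1*, *Calu*, *Usp46*, *Zfp322a*, *Mettl4*, *Bmp2k* and *Msrb1* were not. None of the 9 was among the 3 genes most like another of them.

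Of 34 other transcription factors of mesenchyme, 30 were measured, 7 fell, 1 rose and 22 did not pass. Over all tested genes, 6.31% fell and 8.58% rose. The median log2 fold change of the 30 was -0.18, and it was 0.0029 with reference-gene centring and 0.18 with fibroblast centring. *Osr1*, an odd-skipped zinc-finger factor of embryonic mesenchyme, had intensities of 367, 433, 260 and 342 in mutants 1 to 4 and 609 to 838 in controls. Every mutant was below every control, and the gene fell by 0.96 on the log2 scale (adjusted p = 3.10e-05 in limma). *Foxf1*, the paralogue of *Foxf2* known from lung and gut mesenchyme, had 120, 69.9, 61.7 and 109.5 in mutants 1 to 4 and 122 to 302 in controls, again without overlap, and fell by 0.86 (adjusted p = 0.00501 in limma). Both kept their calls under all 4 scalings, but with unequal variances the adjusted p was 0.0509 for *Osr1* and 0.110 for *Foxf1*.

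*Snai2*, a zinc-finger repressor of migrating neural crest, and *Twist2*, the paralogue of *Twist1* known from dermis, fell by 0.55 and 0.47 on the log2 scale (adjusted p = 0.0103 and 0.0165 in limma). *Twist2* averaged 112 ± 10.2 in mutants and 162 ± 23.3 in controls (SD), without overlap. *Ebf1*, *Prrx1* and *Msx1* fell by 0.61, 0.41 and 0.43 (adjusted p = 0.0356, 0.0367 and 0.0394 in limma). All 5 of these kept a log2 fold change below 0 but lost the call with arrays centred on reference genes or on fibroblast markers. Single mice also decided 4 of these calls: the limma adjusted p reached 0.0551 for *Twist2* without mutant 3 (0.0532 without mutant 2), 0.168 for *Ebf1* without mutant 2, 0.147 for *Prrx1* without mutant 1 and 0.161 for *Msx1* without mutant 3. *Ebf1* was also lost without mutant 3, control 2 or control 8, *Prrx1* without mutant 3, and *Msx1* without mutant 1 or 2. *Prrx1* and *Msx1* were lost without control 1, 2, 5, 6, 8 or 9 as well.

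*Zeb2*, a zinc-finger factor of neural crest that cortical neurons also express, was the 1 gene of the list that rose, with 1248, 1688, 1246 and 1779 in mutants 1 to 4 and 653 to 974 in controls (log2 fold change 0.88, adjusted p = 8.01e-05 in limma). The pan-neuronal markers given above rose in the same mutants, and their part in *Zeb2* was not tested.

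Among 53 other tested genes whose symbols start with Fox, Zic, Tbx or Twist, 3 fell and 0 rose. Over all tested genes these shares were 6.31% and 8.58%, and the median log2 fold change of the 53 was 0.0063. The 3 were *Foxf1*, *Twist2* and *Foxo1*, a forkhead factor of insulin signalling and vessels that fell by 0.48 (adjusted p = 0.0314 in limma) but not with arrays centred on reference genes or fibroblast markers, nor without mutant 1, 2 or 3 or control 5 or 8 (adjusted p up to 0.134 in limma). Values of -0.48 for *Tbx3* (adjusted p = 0.0641 in limma) and -0.25 for *Zic5* (adjusted p = 0.286 in limma) did not pass. The list counts 1 antisense transcript, *Foxl2os*.

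Of 9 genes of retinoic acid, BMP and CXCL12 signals that have been linked to *Foxc1* and the meninges in the mouse, 8 were measured, 4 fell, 1 rose and 3 did not pass. Over all tested genes, 6.31% fell and 8.58% rose. *Crabp2*, a carrier of retinoic acid inside cells, had 792, 870.5, 718 and 922.5 in mutants 1 to 4 and 1595 to 2328 in controls. The groups lay far apart, and it fell by 1.25 on the log2 scale (adjusted p = 6.71e-07 in limma). *Aldh1a1*, an enzyme of retinoic acid synthesis, fell by 1.06, and the ligand genes *Bmp4* and *Bmp7* fell by 0.96 and 0.82 (adjusted p = 2.11e-04, 4.69e-04 and 8.24e-04 in limma). These 4 kept their calls under all 4 scalings, and with unequal variances *Crabp2* alone kept it. *Rdh10*, which makes retinaldehyde from retinol, rose (log2 fold change 0.61, adjusted p = 0.0221 in limma), though not with arrays centred on their median (adjusted p = 0.0599) or without mutant 2 or 4 (adjusted p = 0.0894 and 0.116, limma). For *Aldh1a2*, the main retinoic acid enzyme of the meninges, the difference on the log2 scale was -0.18 (adjusted p = 0.624 in limma) that was 0.0073 with reference-gene centring, and for *Cxcl12*, a chemokine for Cajal-Retzius cells and interneurons, it was -0.37 (adjusted p = 0.110 in limma). Of the 19 fibroblast markers, among which *Crabp2*, *Aldh1a2* and *Cxcl12* are also counted, 7 fell, *Slc22a6* with the smallest adjusted p, and 3 rose.

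*Twist1* protein binds DNA with E proteins, and Id proteins compete for the same partners. Of 7 such genes, 3 rose and 2 fell, against 8.58% and 6.31% of all tested genes. *Id4* and *Id2* rose by 0.77 and 0.56 on the log2 scale (adjusted p = 0.00202 and 0.00560 in limma), without overlap and under all 4 scalings, but *Id2* did not pass with the *Xist* level as a covariate or against controls 1, 5 and 8 alone (adjusted p = 0.103 and 0.149 in limma). *Tcf4*, an E protein gene that neurons also express, rose by 0.46 (adjusted p = 0.0332 in limma), but not with arrays centred on their median, nor without mutant 2 or 4 (adjusted p = 0.114 and 0.141) or control 1, 5, 7 or 8. *Id3* and *Id1*, which respond to BMP signals, fell by 0.52 each (adjusted p = 0.0258 and 0.0264 in limma), and neither passed with arrays centred on fibroblast markers or without mutant 1, mutant 3 or control 8. *Id1* was also lost without mutant 2 and with reference-gene centring. The limma adjusted p reached 0.127 for *Id1* (without mutant 3) and 0.109 for *Id3* (without mutant 1). *Tcf3* and *Tcf12* did not pass. The neuronal markers that rose in the same mice stand beside these values, and their part was not tested.

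**Figure D4:**
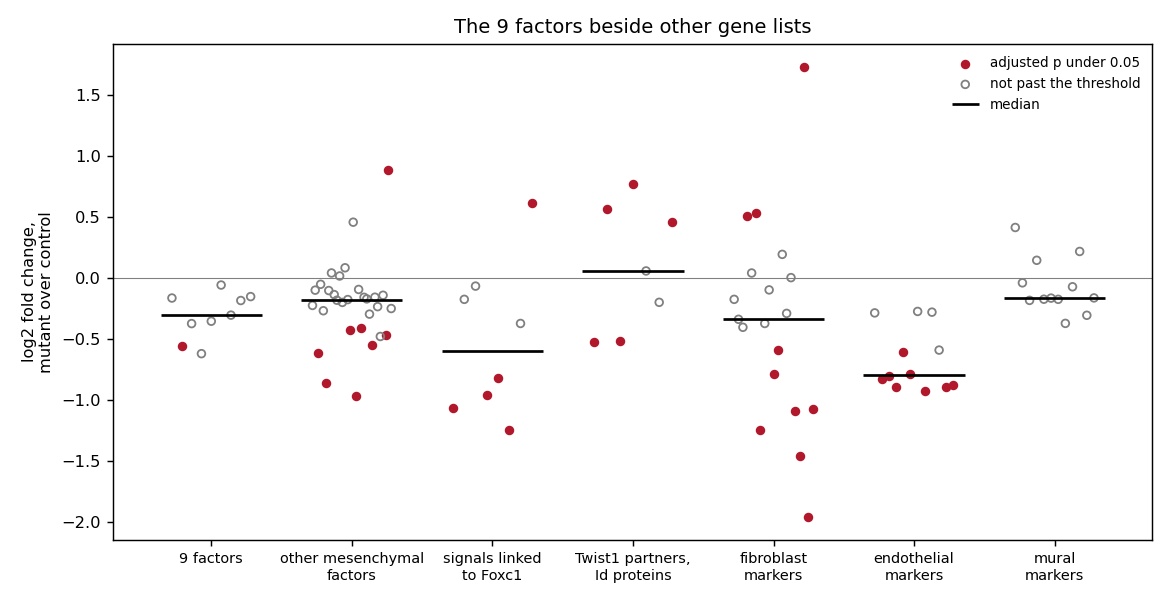
Log2 fold change, mutant over control, of every measured gene of 7 lists, 1 point per gene, filled where the adjusted p was under 0.05, with a bar at the median of each list. The 9 factors lie between -0.62 and -0.06 with 1 filled point, and 8 of 12 endothelial markers are filled, all below 0.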

How the data were processed

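RNA from dissected cerebral meninges of 13 newborn mice was hybridised by the authors to Affymetrix Mouse Gene 1.0 ST arrays, with 1 array for each pup. The authors deposited linear intensities, which they made from the raw scans with PLIER, a probe-level model. The version of PLIER, its background correction and whether arrays were scaled to each other are not given in the sources used here. No array was identical to another, and the number of arrays limits the precision. Names came from the platform table: of 35557 probe sets, 21789 had 1 gene symbol, 1621 had several and 12147 had none. Where a gene had several probe sets with 1 symbol (999 genes), the one with the highest mean over all arrays was used, which gave 19938 genes, of which 19919 matched a RefSeq symbol.

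Values were used as log2(intensity + 16), so folds of dim genes are understated. The 2 groups were tested with limma 3.58.1 in R 4.3.3 (lmFit and eBayes, two-sided, Benjamini-Hochberg adjustment over all 19938 genes, threshold 0.05), a step checked on simulated data. Exact permutation tests of group differences and ratios used every split of the mice into 4 and 9, or of those kept when 1 was left out. Those of correlations used every re-pairing of the values of the 9 controls. The p-values measure the spread among pups of 1 litter. Ratios and the likeness of genes to each member were computed in R 4.3.3, and correlations among controls in Python 3.11.15. The members and lists were chosen with earlier results of these data known. Named genes are the 9 members, up to 8 called genes of each linked list, up to 2 of each marker list, up to 6 of the other genes with like symbols, and the 3 genes most like each member; the text gives fewer of the last. Alternatives were other scalings, constants, filters and tests, the methods' t-test, the *Xist* level as a covariate, a replicate block, averaging over probe sets and leaving out each mouse. Those chosen after seeing the data were the removal of the 4 dimmest arrays by median, the use of only those controls with *Xist* below *Eif2s3y*, as in all mutants, and the likeness with no array median taken off.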

Additional observations from a re-analysis of the deposited data

Results flagged for a closer look

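In 54 groups, the mutant and the control values of 27 genes, the lowest or highest mouse was compared with the rest of its group by Dixon's test at 95%, and 3 stood apart. Chance flags about 1 in 20 groups, and 3 of 54 is near that share. *Foxc2* in mutant 1 had an intensity of 513.1, against 901 to 936 in the other mutants, and the call of *Foxc2* was lost without that mouse. *Foxd1* in control 7 had 834.8, against 1028 to 1217 in the other controls, and *Foxd1* passed the threshold without that mouse. *Foxf1* in control 2 had 302.2, against 122 to 212 in the other controls. In control 2, *Pdgfc* was the lowest of all 13 and the sum of endothelial markers the highest.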

How the results depend on the processing

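Of the 9 genes, 1 fell in the main comparison. That count was 5 with quantile normalization, 3 with a constant of 32 or with an intensity trend and robust variances, 2 without the dimmest 25% of genes, with array quality weights or without the 4 dimmest arrays by median, and 0 with fibroblast centring, unequal variances, the *Xist* level as a covariate or only the 3 controls with low *Xist*. Leaving out 1 mouse at a time gave 0 (without mutant 1) to 3 (without control 7), and 2 without control 1, 3 or 6. The count that rose, 0, became 2 with fibroblast centring, where 8286 of all 19938 genes rose. With quantile normalization, which gave 5 that fell, 3773 of the 19938 genes fell. Genes called, 2968 of which 57.6% rose, numbered 6315 (40.3% rose) with quantile normalization, 8799 (94.2%) with fibroblast centring, 1539 (74.0%) with unequal variances, 1749 with the *Xist* covariate, 1834 with only the controls of low *Xist*, and 2272 to 3013 with a mouse left out. Centring on the array median put 42.0% of calls higher, and on reference genes 81.3%. The methods' t-test at p under 0.05 and a fold over 2 gave 812 genes and 0 of the 9, and after Benjamini-Hochberg 2900 genes and 1 of the 9.

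Directions turned as follows on the log2 scale. With reference-gene centring *Foxc1* was 0.018, *Zic4* 0.030 and *Twist1* 0.12. With fibroblast centring *Foxc1* was 0.20, *Zic1* 0.058, *Zic2* 0.18, *Zic4* 0.21, *Tbx18* 0.0077 and *Twist1* 0.30. With a mouse left out, *Zic4* ranged over -0.32 to 0.032, above 0 without mutant 1, and *Twist1* over -0.11 to 0.036, above 0 without mutant 3. *Foxc2* lay below 0 under every alternative and lost its call under 6: fibroblast centring (-0.20), unequal variances (-0.56, adjusted p = 0.319), the *Xist* covariate (-0.59, adjusted p = 0.0992), the controls with low *Xist* alone (-0.60, adjusted p = 0.101), the replicate block (-0.49) and without mutant 1 (-0.35). Pairs of genes whose ratio differed numbered 0, and 0 to 4 with a mouse left out. Correlated pairs among controls numbered 34, and 9 with no array median taken off. The causes were not tested.

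The labels number mutants 1 to 4 and controls 1 to 9, but mice of 1 number were not alike (correlations of -0.34, 0.16, 0.31 and -0.09), and the numbers do not pair them. With the replicate block 1829 genes were called and 0 of the 9 fell. *Foxc2* was then -0.49 (adjusted p = 0.123 in limma).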
